A study of Homo sapiens with 3 samples.

Results

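The genes that carry adenosine into the cell, make it, remove it or sense it were examined in A549, a long-established human line of lung adenocarcinoma cells. They were ADK, ADA, SLC29A1, SLC29A2, NT5E, AHCY, ADORA1, ADORA2A, ADORA2B and ADORA3, which makes 10 of the 22435 genes named on the array and 12 of the 58191 probes used. They were chosen by name, and every probe whose RefSeq accession maps to one of them was taken. Cells were kept for 48 h with 0.1% DMSO as the control, with 60 μg/mL cordycepin, or with 100 μg/mL cordyceps, whose preparation the labels do not describe. According to the labels, all 3 cultures grew in DMEM with 10% fetal bovine serum and 1% penicillin-streptomycin. The medium also held zinc sulfate at 16.7 μM, troglitazone at 10 μM and nicotinamide at 10 mM. RNA of each condition was hybridized to 1 single-colour Agilent array, so no difference below has a replicate check and no test between conditions was possible.

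Adenosine is a nucleoside that cells use both as a building block and as a signal. Outside the cell it is formed from AMP by the ectoenzyme CD73, the product of NT5E, and equilibrative transporters such as those encoded by SLC29A1 and SLC29A2 carry it across the membrane. Inside, adenosine kinase (ADK) phosphorylates it, adenosine deaminase (ADA) turns it into inosine, and AHCY releases it from S-adenosylhomocysteine in the methylation cycle. On the surface it binds G protein coupled receptors, of which those encoded by ADORA2A and ADORA2B raise cAMP and those encoded by ADORA1 and ADORA3 lower it. Cordycepin is 3′-deoxyadenosine, an adenosine analog that is known as a substrate of adenosine kinase and of adenosine deaminase.

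The processed signal had its 75th percentile at 260.1 in control cells, at 224 with cordycepin and at 260.2 with cordyceps. Probes well above background numbered 28494, 27666 and 24505 on these arrays. The lowest signals that counted as such were 18.6, 21.8 and 34.5, so a signal that passes on 1 array can fail on another. Levels are given as processed signals in arbitrary units. Ratios are log2 differences after the 75th percentile of each array was subtracted, and a difference was called at 2-fold. As a measure of technical spread, the log2 ratios of the 2 brightest probes of the same gene were compared over 3356 genes. The resulting standard deviation (SD) of 1 probe was 0.35 for cordycepin over control, 0.34 for cordyceps over control and 0.42 for cordyceps over cordycepin. On the cordyceps array the corner with rows over 240 and columns over 82 stood apart, with 11.2% of its spots marked as background outliers against 3.16% elsewhere and 0 such spots in the same corner of the other arrays. Of the epithelial markers KRT8, KRT18, KRT7, KRT19, CDH1 and EPCAM, 6 of 6 were well above background on every array, whereas the T cell marker CD3E was not on any. The leukocyte markers PTPRC and CD14 were well above background on every array. So was the fibroblast marker COL1A1, at signals of 337, 239 and 208 on the control, cordycepin and cordyceps arrays, and the other fibroblast markers COL1A2, DCN, PDGFRA and PDGFRB were not on any. Of 4 endothelial markers, VWF and CDH5 passed in control and cordycepin-treated cells only, and PECAM1 and KDR nowhere. The part of other cell types in the results was not tested. The alveolar type II list had 4, 4 and 2 of 6 genes well above background on the control, cordycepin and cordyceps arrays. NKX2-1 and SFTPC passed in control cells, at 22.7 and 85, but not with cordyceps, at 33.5 and 34.7. The NKX2-1 signal was thus higher on the array where it failed, and the SFTPC signal was lower.

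The brightest probe of a gene was well above background for 7 of 10 genes in control cells, 8 in cordycepin-treated cells and 7 in cordyceps-treated cells. SLC29A1, SLC29A2, NT5E, ADK, ADA, AHCY and ADORA2B were measured in all 3 conditions. ADORA1 and ADORA3 were not well above background in any. ADORA2A passed with cordycepin alone, although its cordyceps signal of 31.2 exceeded the lowest that passed with cordycepin, 21.8. By the software's weaker flag, a positive and significant signal, the counts were 9, 8 and 8, with ADORA1 and ADORA2A added in control cells and ADORA2A with cordyceps. The plot of levels shows that the conditions lay closest together for ADK, SLC29A1 and ADA and furthest apart for NT5E among the 7 genes measured throughout.

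**Figure D1:**
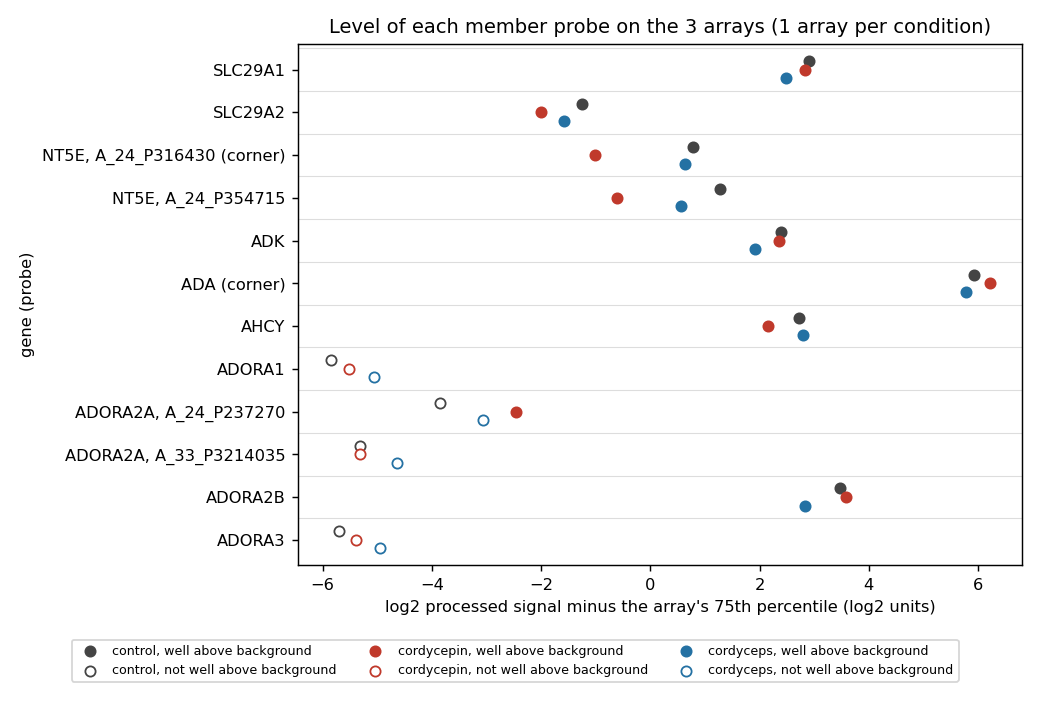
Level of each probe on the 3 arrays, as log2 processed signal minus the 75th percentile of the array (x axis, log2 units), for each gene or probe (y axis). Filled points are well above background, open points are not, and each point is 1 array. Both NT5E probes sit lowest with cordycepin, and all ADORA1 and ADORA3 points are open. Positions of different probes on the x axis are not comparable as amounts of RNA.

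With cordycepin, NT5E was lower and ADORA2A was higher than in control cells by 2-fold or more, and the other 6 genes that could be compared were not called. The count was thus 1 higher and 1 lower of 8 tested, beside 5.95% higher and 3.57% lower among 15917 genes tested over the whole array. So few genes cannot be set apart from those shares. Over the 7 genes measured in both conditions the median log2 ratio was -0.08, against -0.05 over 14600 genes, and 4 of the 7 lay within the SD between probes. With cordyceps none was called, 0 of 7 in either direction, where 4.19% of 15602 genes were higher and 3.15% lower. There the 7 genes lay between -0.72 and 0.07 with a median of -0.42, below the median of -0.11 over 13889 genes, and 3 of the 7 lay within the SD between probes. The corner also entered the scaling of the cordyceps array. With it left out, the ratios of the genes outside it rose, that of SLC29A1 from -0.42 to -0.31. The median over all probes measured on both arrays rose likewise, from -0.12 to -0.006.

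**Figure D2:**
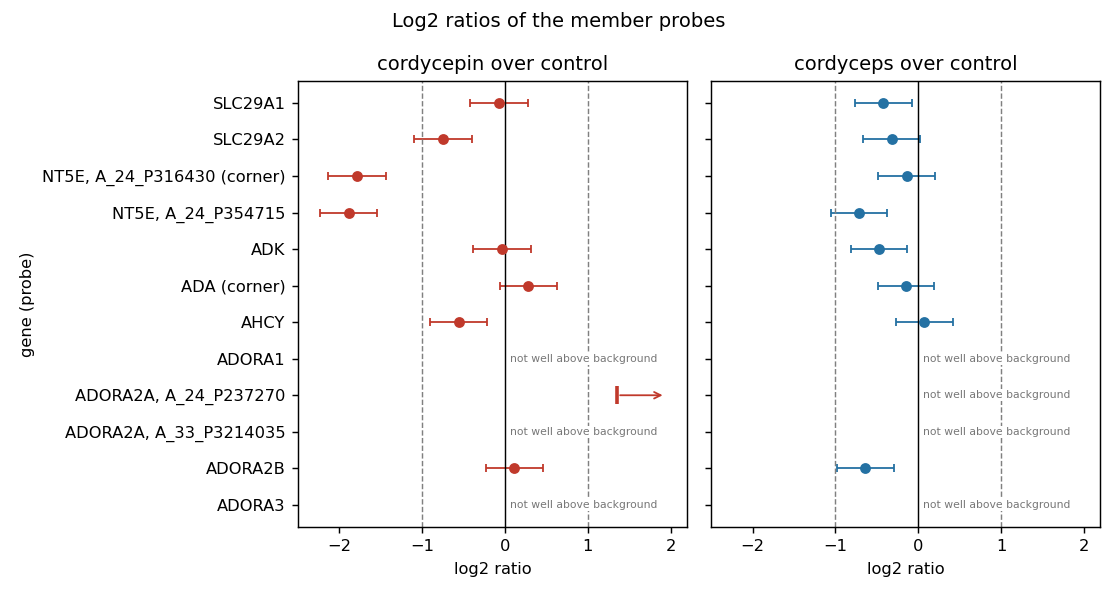
Log2 ratios over control (x axes) for each probe (y axes), with cordycepin on the left and cordyceps on the right. Points are ratios of 1 array over 1 array, bars are the SD between probes (0.35 and 0.34), the arrow is a lower bound, and dashed lines mark 2-fold. Both NT5E probes lie beyond the 2-fold line with cordycepin, and no point does with cordyceps.

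NT5E, the gene of the AMP-hydrolysing ectoenzyme CD73, had the largest measured difference of the 10 genes. Its brighter probe (A_24_P354715) read 633 in control cells, 147 with cordycepin and 385 with cordyceps, with errors estimated by the scanner software of 63.4, 15.7 and 39.5. The level was therefore highest in control cells, lowest with cordycepin and between them with cordyceps. The log2 ratio of cordycepin over control was -1.89, 3.71-fold lower, and 43 of 14600 genes, or 0.295%, lay as low. The second probe (A_24_P316430) read 447, 112 and 406, a 3.45-fold lower value with cordycepin, so that both probes passed 2-fold. RNA of whole cultures was measured, so fewer cells with the transcript and less transcript per cell cannot be told apart here or for any gene below.

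The NT5E probes gave different values for cordyceps. The brighter probe was 1.64-fold lower than in control cells, a log2 ratio of -0.72, which was beyond the SD between probes but short of 2-fold. The second probe, which lies in the corner that stood apart on the cordyceps array, gave -0.14, within that SD. The median ratio of the probes in its block of the array was -0.12, and that around the brighter probe -0.15. The part of the position in the difference between the probes was not tested.

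The NT5E promoter is shown because this gene was the one called lower with cordycepin by both of its probes. The 250 bases before the RefSeq start on chromosome 6 (GRCh38.p14, chr6:85449833-85450082, plus strand) are printed with capitals at TGACG, the first letters of the cAMP response element, and at CCGCCC, which is the GC box GGGCGG read on the other strand.
NT5E: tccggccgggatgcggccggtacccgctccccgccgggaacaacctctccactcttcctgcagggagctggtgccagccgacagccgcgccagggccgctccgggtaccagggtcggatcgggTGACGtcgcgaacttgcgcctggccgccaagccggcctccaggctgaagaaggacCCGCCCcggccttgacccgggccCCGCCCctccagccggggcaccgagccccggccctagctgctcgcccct
The window was 75.2% G and C, against a median of 58.0% over 35116 promoter windows of the same length. TGACG began 127 bases before the start, and 21.2% of all windows hold it on either strand. The GC boxes began 72 and 49 bases before the start, and 42.6% of windows hold at least 1. The full element TGACGTCA, which overlaps TGACG and occurs in 1.65% of windows, was not among the letters of this window. These matches are descriptions of the sequence, not binding sites.

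The equilibrative transporters differed by less than 2-fold. SLC29A1, which encodes the broadly expressed transporter ENT1, read 1954 in control cells, 1598 with cordycepin and 1460 with cordyceps. After scaling, its log2 ratio was -0.08 with cordycepin, within the SD between probes, and -0.42 with cordyceps, beyond it. The cordyceps value depended on the processing. It ran from -0.45 to -0.15 over the alternatives, and the latter, with arrays scaled by their median, was within the SD. So were -0.33 with scaling over detected probes, -0.31 with the corner left out and -0.29 with block centring. Quantile normalization gave -0.34, at the SD. The value stayed beyond the SD without scaling, at -0.42, and with normexp, at -0.45. SLC29A2, which encodes ENT2, read 109, 55.7 and 87.2 with software errors of 11.8, 7.51 and 11.8. It was 1.68-fold lower with cordycepin, a log2 ratio of -0.75, and 6.51% of genes lay as low. With cordyceps its ratio was -0.32, within the SD. The SLC29A2 difference with cordycepin varied with the processing, from -0.37 after a normexp background correction to -1.02 with arrays scaled by their median. The median probe signals were 20.3, 21.1 and 16.9 on the control, cordycepin and cordyceps arrays, where the lowest that passed were 18.6, 21.8 and 34.5. Scaling by the median thus set the arrays level at signals near or below the lowest that passed, here and for the genes below.

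ADK, the kinase that takes the first step of adenosine salvage and of cordycepin activation, was measured with 10 spots of 1 probe on each array. Its signals were 1361 ± 75.9 in control cells, 1144 ± 50.3 with cordycepin and 981 ± 52.8 with cordyceps (SD over 10 spots of 1 array). The ranges were 1180 to 1443, 1060 to 1198 and 867 to 1064. After scaling, the spots of control and cordycepin overlapped, with log2 levels of 2.38 ± 0.084 and 2.35 ± 0.065, and the cordyceps spots lay below both at 1.91 ± 0.079. The ratio by position was -0.04 ± 0.10 for cordycepin over control, with 3 of 10 positions above 0. For cordyceps over control it was -0.47 ± 0.11, with 0 of 10 above 0 and a range of -0.65 to -0.25. Spots share the RNA and the array, so these errors cover printing and scanning but not cultures or the choice of scaling, and no ADK spot lay in the corner. With arrays scaled by their median, the cordyceps ratio was -0.20 over control and 0.10 over cordycepin. The cordyceps difference of -0.47 from control was short of 2-fold, and 17.9% of genes lay as low.

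**Figure D3:**
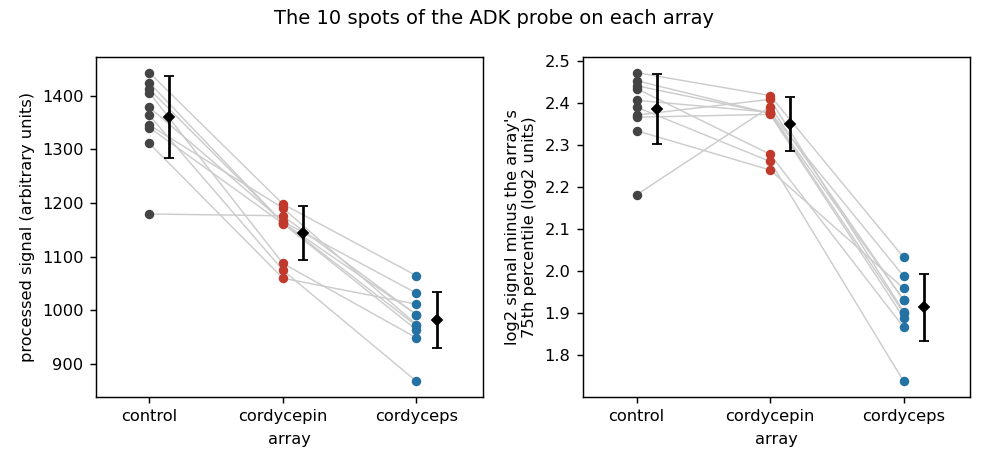
The 10 spots of the ADK probe on each array, as processed signal in arbitrary units (left) and as log2 signal minus the 75th percentile of the array (right). Lines join spots at the same array position, and diamonds with bars are the mean and SD over the 10 spots. On the right, with this scaling, control and cordycepin spots overlap and every cordyceps spot lies below them.

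ADA, the deaminase that inactivates adenosine and cordycepin, was well above background in each condition. It read 15857 in control cells, 16602 with cordycepin and 14312 with cordyceps. The log2 ratios were 0.28 with cordycepin and -0.15 with cordyceps, both within the SD between probes. Over the 731 genes whose 2 brightest probes both had control signals of at least 1000, that SD was smaller, 0.25 for cordycepin and 0.19 for cordyceps, and the cordycepin value lay just beyond it. Its only probe lies in the corner, where the block around it had a median ratio of -0.20 for cordyceps over control. The cordyceps ratio turned to 0.12 when arrays were scaled by their median.

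AHCY, the hydrolase that splits S-adenosylhomocysteine into adenosine and homocysteine, read 1708 in control cells, 997 with cordycepin and 1797 with cordyceps. It was 1.48-fold lower with cordycepin, a log2 ratio of -0.56, and close to control with cordyceps at 0.07. The first difference was beyond the SD between probes and short of 2-fold, and 12.1% of genes lay as low. Over all ways of processing the arrays it stayed between -0.83 and -0.50.

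Of the receptor genes, ADORA2B was the one measured in every condition. This low-affinity receptor, which couples to Gs, read 2895 in control cells, 2699 with cordycepin and 1860 with cordyceps. Its log2 ratio was 0.11 with cordycepin, within the SD between probes and turning to -0.15 under median scaling. With cordyceps it was -0.64, 1.56-fold lower and beyond the SD, and 10.1% of genes lay as low.

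ADORA2A, the high-affinity Gs-coupled receptor, was near the limit of detection. Its brighter probe (A_24_P237270) read 18 in control cells, 40.8 with cordycepin and 31.2 with cordyceps, with software errors of 5.22, 7.08 and 9.68, and was well above background with cordycepin only. The lowest signal that passed was 21.8 on the cordycepin array but 34.5 on the cordyceps array. Against the lowest signal measured as above background in control cells, which was 18.6, the cordycepin value was at least 2.54-fold higher. Before the software subtracted background, the median pixel signal of this spot was 82, 98 and 104, so the order of cordycepin and cordyceps was the opposite there. The other probe (A_33_P3214035) read 6.55, 5.63 and 10.5 and was not well above background on any array. ADORA2A was called in 11 of 14 alternative ways of processing the data and not with normexp, where the log2 value was 0.46, with the median over its probes, or at a threshold of 3-fold.

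The Gi-coupled receptor genes were not well above background on any array. ADORA1 read 4.51, 4.89 and 7.84 in control, cordycepin-treated and cordyceps-treated cells, and ADORA3 read 5.01, 5.35 and 8.44. The lowest signals that counted as well above background were 18.6, 21.8 and 34.5 on the same arrays. ADORA1 passed the weaker flag in control cells and ADORA3 on no array. No difference was computed for either gene at this signal.

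The treatments differ in kind and dose and share the control array, so their values are set side by side rather than compared as doses. Directly between the arrays, NT5E was 2.26-fold higher with cordyceps than with cordycepin by its brighter probe and 3.13-fold by the other, and no gene was lower by 2-fold. That is 1 higher and 0 lower of 8 tested, where 5.57% of 15482 genes were higher and 7.75% lower. AHCY was 1.55-fold higher with cordyceps and ADORA2B 1.68-fold lower. For ADK, SLC29A1 and ADA the cordyceps values were lower, at -0.44, -0.35 and -0.43, and turned to 0.10, 0.19 and 0.11 with arrays scaled by their median. That scaling moved the median of all probes measured on both arrays from -0.05 to 0.49.

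**Figure D4:**
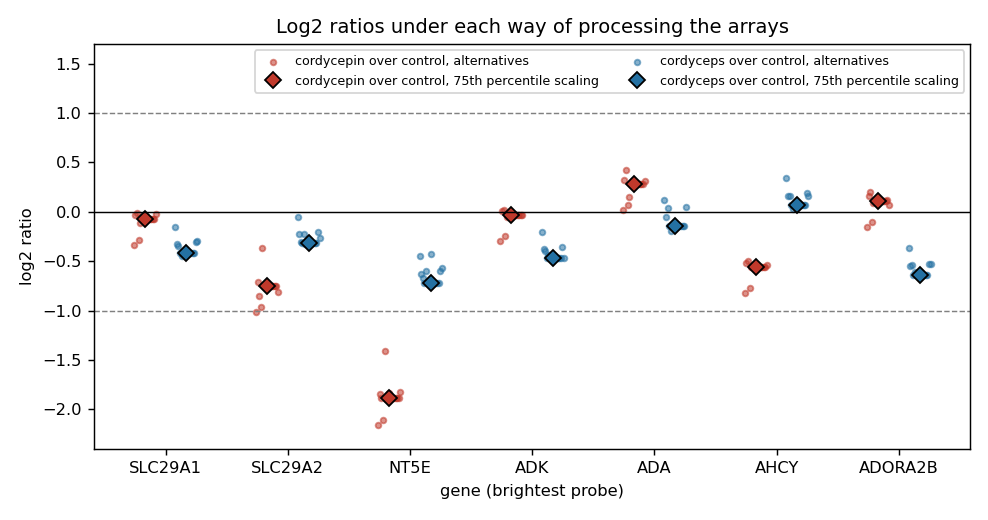
Log2 ratios over control (y axis) of the 7 genes measured on all arrays (x axis), with diamonds for scaling by the 75th percentile and small points for the alternative ways of processing. Cordycepin is red, cordyceps is blue, and dashed lines mark 2-fold. NT5E with cordycepin stays beyond the lower 2-fold line throughout, between -2.16 and -1.41.

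The plot of array positions shows where the probes sit. The ADA probe and the second NT5E probe are in the corner, and the others, the 10 ADK spots included, are outside it. Over genes outside the corner, 2.66% were called higher with cordyceps than in control cells, against 10.1% of genes inside it.

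**Figure D5:**
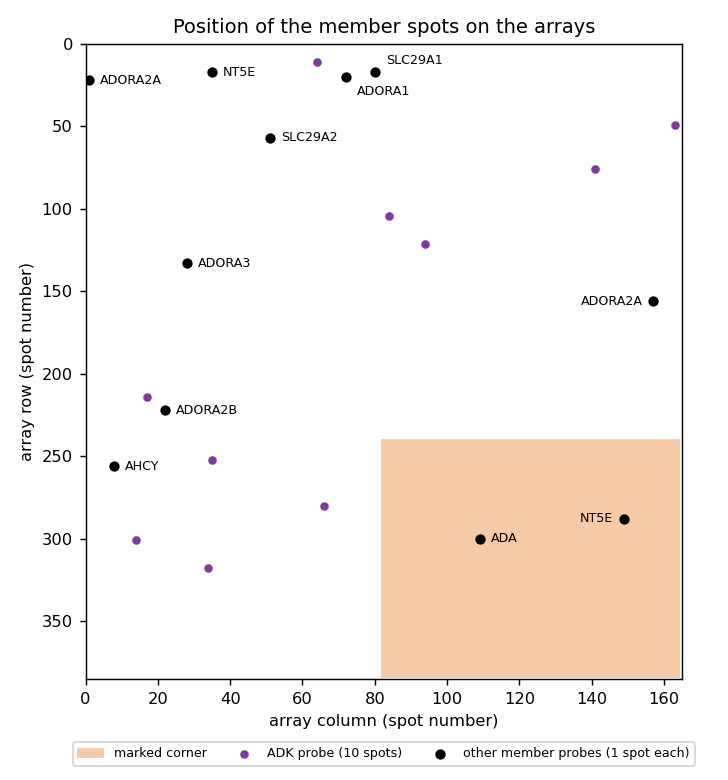
Array column (x axis) and row (y axis) of each spot of the 10 genes, with the corner shaded. Purple points are the 10 ADK spots and black points the other probes, with 1 spot each. Only the ADA probe and 1 of the NT5E probes lie in the shaded corner.

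Genes around this pathway were described as 11 lists with 105 genes, of which 102 had a probe. They were chosen with earlier results of these data known. With cordycepin, 8 of 81 tested genes (9.88%) were higher and 4 (4.94%) lower, beside 5.95% and 3.57% of all genes tested, with a median of -0.08. With cordyceps, 4 of 78 (5.13%) were higher and 2 (2.56%) lower, beside 4.19% and 3.15% of all genes tested, with a median of -0.09. Outside the corner these became 5 of 63 higher and 4 lower with cordycepin, and 0 of 58 higher and 2 lower with cordyceps. The shares of all genes outside the corner were 6.15% higher and 3.53% lower with cordycepin, and 2.66% and 3.09% with cordyceps.

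Among transporters, ectoenzymes and intracellular nucleotidases, single genes differed in both directions with cordycepin. SLC29A4, which encodes the monoamine and adenosine transporter ENT4, read 379 in control cells and 149 with cordycepin, 2.19-fold lower, while its dimmer probe gave 0.40 on the log2 scale. ENTPD2, an ectonucleotidase that acts upstream of CD73 on ATP, read 1240 and 361, 2.96-fold lower, and 862 with cordyceps. ENTPD1, the ectonucleotidase CD39, was at least 2.14-fold higher with cordycepin and its other probe was below 2-fold at a log2 bound of 0.67. ENPP3 was at least 2.61-fold higher, by a probe in the corner. Thus 2 of 6 tested ectoenzyme genes were higher and 1 lower, where 5.95% and 3.57% of all genes were, and 6 genes are too few to set apart from those shares. NT5C1B, a cytosolic 5′-nucleotidase, was above background with cordycepin only, at 237 against 4.97 in control cells, at least 14.8-fold higher, but its second probe was not above background on any array. ADA2, a secreted adenosine deaminase, read 14.7 and 50, at least 3.11-fold higher.

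The S-adenosyl cycle and ATP release lists had no called gene, with 6 tested genes in each list and each treatment. In the list of 15 adenylate and nucleoside kinases, AK5 was lower with cordycepin, by at least 2.10-fold from a control signal of 53.1. It read 20 with cordycepin and 8.97 with cordyceps and was well above background with neither. The log2 bound with cordyceps was -0.62, since the lowest signal that passed on that array was 34.5. The second AK5 probe was not well above background on any array. TK1, the thymidine kinase of dividing cells, read 27111 in control cells, 35455 with cordycepin and 9023 with cordyceps, 3.01-fold lower with cordyceps. SLC28A3, a concentrative transporter, and the cyclase genes ADCY2 and ADCY5 were above background with cordyceps only, at 305, 398 and 494, and were called higher. All 3 of those probes lie in the corner, and the second ADCY2 probe was not above background on any array.

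Downstream of the receptors, the 6 adenylyl cyclase genes tested with cordycepin had none called, and GNAL, an olfactory-type Gs subunit, was 2.14-fold lower of 8 G protein alpha genes. Of 17 cAMP-responsive genes, 2 were higher with cordycepin and 0 lower, with a list median of -0.08. Over the whole array 5.95% of genes tested were higher and 3.57% lower, and lists this short cannot be set apart from those shares. PER1, a clock gene, read 337 in control cells and 674 with cordycepin, 2.32-fold higher. AREG, a ligand of the EGF receptor, read 1627, 4340 and 6040, which is 3.09-fold higher with cordycepin and 3.71-fold with cordyceps. Its probe lies in the corner, and its second probe outside the corner gave 1.22 and 1.89 on the log2 scale, past 2-fold in both. THBD, which encodes thrombomodulin, was 2.06-fold lower with cordyceps, a log2 ratio of -1.04 that was only just past 2-fold. That margin was smaller than the shift of SLC29A1 from -0.42 to -0.31 when the corner was left out.

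Among the receptors for ATP, ADP and UTP, 7 of 16 genes were tested and 2 were higher with cordycepin, beside 5.95% of all genes tested. These 7 genes are too few to set apart from that share. P2RY2 read 195 in control cells and 434 with cordycepin, 2.58-fold higher by a probe in the corner, and its second probe outside the corner gave 1.01 on the log2 scale. P2RY1 read 40.6 and 81.7, 2.33-fold higher by its brightest probe. A dimmer probe was well above background in control cells but not with cordycepin, at 30.8 and 18.7. Another dimmer probe was so with cordycepin but not in control cells, with a log2 bound of 0.59. No P2 receptor gene was called with cordyceps.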

How the data were processed

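RNA of A549 cells was hybridized to 1 Agilent single-colour (Cy3) array per condition, and the 3 arrays share 1 slide. The methods name both Cy3 and Cy5, but the files hold 1 channel. The authors deposited intensity values, background-subtracted and spatially detrended within each array by Feature Extraction 11.5.1.1 and not scaled between arrays. Per the labels the build was hg19, and no coordinates of that build are used here.

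Control spots and outlier spots (106, 80 and 63 on the control, cordycepin and cordyceps arrays) were left out, and no spot was saturated (0). The log2 of the processed signal was averaged over the spots of a probe, which left 58191 of 58201 probes, and each array's 75th percentile was subtracted. A probe counted as measured where 50% or more of its spots carried the software's flag for well above background. Where only 1 of the compared arrays measured a probe, the ratio is a bound against the higher of the lowest such signal on the other array and the probe's own signal there. Probes were named through RefSeq accessions (GRCh38.p14), which named 31097 probes, and each gene was called by its brightest probe at 2-fold. Promoter sequences come from RefSeq GRCh38.p14, and 8 of 10 genes had an entry. SLC29A2 and ADORA2A had none.

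No test was run, since there is 1 array per condition. All 10 genes are named. From each list up to 4 genes called in a comparison are named by size, with genes needed to say what was not detected. The genes and lists were chosen with earlier results of these data known. The number of arrays limits the precision. The calling procedure was tested on simulated data. Alternatives were the scaling (median, detected probes, quantile, none), normexp with an offset of 50 (limma 3.58.1 in R 4.3.3), outlier spots kept, the deposited value table, the median over probes, the detection rule, thresholds of 1.5-fold and 3-fold, the corner left out and centring by blocks of an 8 by 8 grid. Other steps used Python 3.11.15, numpy 2.4.6 and pandas 2.3.3.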

Additional observations from a re-analysis of the deposited data

How the results depend on the processing

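Of 340 alternative values for 23 log2 ratios, 137 equalled the reported value, many because the setting cannot move a ratio, as a threshold cannot. Of the 203 that differed, 190 lay within the SD between probes of it and 13 moved further, and 0 called values changed sign. NT5E with cordycepin was called in 15 of 15 alternatives. The count of genes higher with cordycepin was 0 with normexp, with the median over probes, with detection required on both arrays and at 3-fold, in place of 1. The count lower was 2 with median scaling and at 1.5-fold, in place of 1. With cordyceps 2 genes were lower at 1.5-fold, in place of 0. Cordyceps over cordycepin gave 2 higher with median scaling and at 1.5-fold, 0 with normexp and at 3-fold, in place of 1, and 1 lower at 1.5-fold in place of 0. Leaving corner genes out of the pathway lists, an alternative chosen after seeing the data, changed the genes higher from 8 to 5 with cordycepin, from 4 to 0 with cordyceps and from 6 to 3 for cordyceps over cordycepin, by its construction. The causes of the other changes were not tested. ADA has no value with the corner left out, and ADORA2A has none with detection required on both arrays. Genes near the lowest measured signals, ADORA2A among them, have bounds only. No paired analysis was possible because there was 1 array per condition.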

Other observations

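Directly between the treated cultures, 6 of 82 genes in the pathway lists were higher with cordyceps than with cordycepin and 5 were lower, beside 5.57% and 7.75% of 15482 genes tested. Of the 6 higher, SLC28A3, ADCY2 and ADCY5 have probes in the corner that stood apart on the cordyceps array. NT5C1B was at least 7.99-fold lower with cordyceps, by 1 of its 2 probes, and P2RY1 at least 2.75-fold lower by its brightest probe. Another P2RY1 probe gave a log2 bound of 0.0, and the remaining P2RY1 probe was well above background with neither treatment. TK1 was 4.56-fold lower with cordyceps, with signals of 35455 with cordycepin and 9023 with cordyceps. PPARGC1A, a transcriptional coactivator of mitochondrial genes, read 822 with cordycepin and 2287 with cordyceps, 2.40-fold higher. TK2, the mitochondrial thymidine kinase, was 2.25-fold higher, and ENTPD2 2.06-fold higher. THBD was 3.08-fold lower and NR4A3, a nuclear receptor gene induced by cAMP, 2.11-fold lower.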
